A study of Mus musculus with 64 samples.

Results

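Epididymal white adipose tissue (eWAT) of FANKO mice was compared with eWAT of WT mice at zeitgeber time (ZT) 6, the middle of the light phase, by RNA sequencing. The comparison holds 8 of the 64 samples of the series, 4 WT and 4 FANKO, chosen by depot, genotype and time point alone, and 20249 genes were tested in it. FANKO mice carry *Nampt* with exon 3 flanked by loxP sites (*Nampt*tm1Jtree) together with Adiponectin-Cre, so that the gene is lost in adipocytes. WT mice were littermates without Cre. All samples were from male mice, 2 to 4 mo old, on chow at room temperature under 12 h of light and 12 h of darkness, with lights on at ZT 0. The inbred strain and the number of animals per sample are not given in the sources used here. Cre from the adiponectin promoter acts in adipocytes, and the macrophages, endothelial cells, progenitors and lymphocytes of the depot keep *Nampt*. RNA came from the whole depot, so fewer cells of a type and less RNA per cell cannot be told apart in any value given here. Both genotypes were also sampled at ZT 10, ZT 18 and ZT 22, from other samples, which allowed a test of whether the genotype difference at ZT 6 was different from the rest of the day.

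NAMPT is the rate-limiting enzyme of the salvage pathway that returns nicotinamide to NAD+, the cofactor of redox enzymes and the substrate of sirtuins and PARPs. White adipocytes store triglyceride, release fatty acids and secrete hormones such as adiponectin and leptin. Cells meet damage and shortage with separate stress programs, which include interferon-induced antiviral genes, ATF4 targets for amino acid supply, NRF2 targets against oxidants, and heat shock and endoplasmic reticulum (ER) chaperones for protein folding.

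The 8 libraries held 9542604 to 22296636 counts, and 5.44% to 10.9% of counts came from the mitochondrial genome, with no separation of the genotypes. All levels below are CPM, the counts of a gene relative to library size, with libraries scaled by the trimmed mean of M values (TMM). Adipocyte markers were present in every library, and their sum, over 15 genes, was 22000 to 29500 CPM in WT and 9830 to 14100 CPM in FANKO samples. *Car3*, given below, held a large part of this sum, and the median log2 fold change of the 15 genes was -0.29. WT replicate 2 stood apart from the other WT libraries, with correlations of log2 CPM of 0.964 to 0.965 against 0.977 to 0.984 among the other 3. WT replicate 4 held germ cell and epididymis markers at 24.1 and 26.3 CPM in sum, where the other WT samples held at most 5.75 and 9.03 CPM. Epididymis markers were not particular to that library. Their sum was 42.9 CPM in a FANKO eWAT sample of ZT 18, 52.9 CPM in another of ZT 22, and 12.1 CPM in FANKO replicate 3 of ZT 6. FANKO replicate 3 was highest of its group in T and natural killer (NK) cell markers, at 59.4 CPM in sum against 24.3 to 30.2 CPM.

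**Figure D1:**
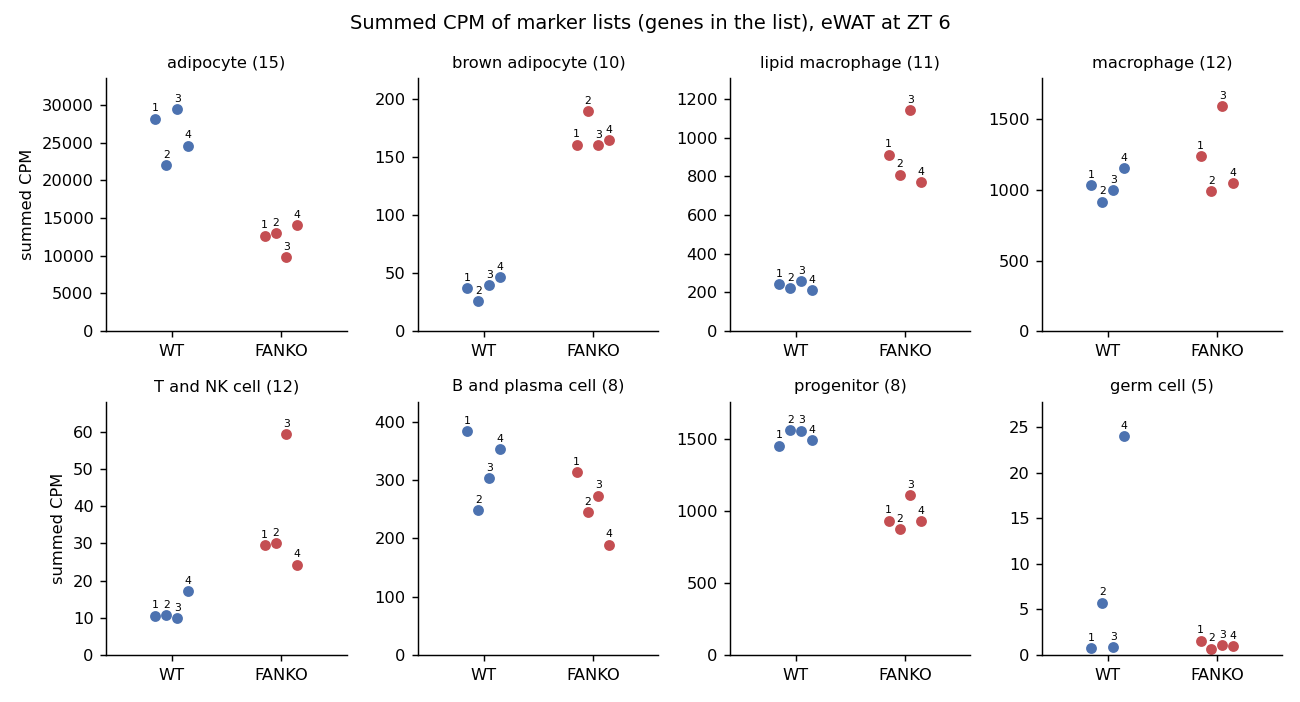
Summed TMM-normalized CPM (y axis, linear from 0) of 8 marker lists in the 4 WT and 4 FANKO eWAT samples at ZT 6. Each point is a sample with its replicate number, and the number of genes in a list is in the panel title. Adipocyte and progenitor sums were lower and lipid macrophage and brown adipocyte sums higher in every FANKO sample, and the germ cell sum reached 24.1 CPM in WT replicate 4 alone. *Car3* held a large part of the adipocyte sum, and *Kcnk3* and *Cidea* held most of the brown adipocyte sum in FANKO samples.

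*Nampt* itself (chromosome 12, 32819545 to 32853349 of GRCm38, forward strand) did not separate the genotypes at this time. WT samples held 112, 116, 130.3 and 119 CPM and FANKO samples 112, 118, 124 and 112 CPM. The ranges overlapped almost wholly. The means were 119 ± 7.97 and 117 ± 5.83 CPM (SD, n = 4 each), and the difference of -2.70 CPM had a two-sided exact permutation p of 0.657, where the smallest that 4 against 4 samples allow is 0.0286. Scaling by library size alone, without TMM, put the WT samples at 140.5, 164, 153 and 151 CPM and the FANKO samples at 122, 119, 134 and 118 CPM. The groups did not overlap on that scale, and the difference was -28.9 CPM (exact permutation p = 0.0286). The log2 fold changes at ZT 10, ZT 18 and ZT 22 were -0.25, -1.11 and -0.59, and the difference of the ZT 6 value from their mean was 0.62 on the log2 scale (adjusted p = 0.0512, edgeR quasi-likelihood test with Benjamini-Hochberg adjustment), short of the threshold. Reads were counted over the whole gene, so loss of exon 3 was not measured here as such, and in eWAT at ZT 6 the count of *Nampt* was no check of the genotype labels.

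A large part of the transcriptome differed at this time. At a false discovery rate (FDR) below 0.01, 5458 genes differed between FANKO and WT eWAT at ZT 6, 27% of the genes tested, of which 3420 (16.9%) were higher and 2038 (10.1%) lower in FANKO samples. Of these, 877 were higher and 949 lower by more than 2-fold. The median log2 fold change over all genes was -0.01. In 4844 of the 5458 genes the 4 WT and 4 FANKO samples did not overlap, which held for 35.6% of all genes tested. Size factors computed without TMM moved the center, since library size alone shifted the median of all genes to -0.29 and gave 1223 higher and 3905 lower genes among 5128, while the RLE size factors gave 2829 and 2443. Directions below are therefore relative to the bulk of genes. Without WT replicate 2, 3969 genes passed, and without WT replicates 2 and 4 together, 2820.

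The 8 largest increases with no overlap of the groups were *Oas3*, *Oasl1*, *Phospho1*, *Aspg*, *Gbp10*, *Rsad2*, *Slc7a11* and *Ifit1*. 5 of them are interferon-induced genes. *Oas3*, which makes the 2′-5′ oligoadenylates that activate RNase L, held 0.844, 0.460, 0.983 and 1.24 CPM in WT and 23.4, 13.4, 43.6 and 15.9 CPM in FANKO samples. Every FANKO sample was at least 10 times above the highest WT sample, and replicate 3 was the highest. The fold change was 28.8 (log2 4.85 ± 0.46 SE, adjusted p = 7.41e-13). *Aspg*, an asparaginase, held 1.91, 1.65, 1.97 and 6.28 CPM in WT and 64.2, 78.9, 74.9 and 63.8 CPM in FANKO samples, a fold change of 24.1 (adjusted p = 6.76e-18), and *Phospho1*, a phosphatase of phosphocholine and phosphoethanolamine, held 0.619, 0.383, 0.447 and 0.593 CPM in WT and 11.8, 13, 12.8 and 14.3 CPM in FANKO (adjusted p = 2.18e-17). Both were even across the FANKO samples, unlike the interferon-induced genes. *Phospho1* shares exonic sequence on its own strand with the gene model of *Zfp652*, so some of its reads may be split between them.

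The 8 largest decreases were *D430019H16Rik*, *Dnah3*, *Folh1*, *Shisa2*, *Celsr2*, *Lrg1*, *C6* and *Cyp2f2*. *D430019H16Rik* fell the most, from 26.9, 37.8, 34.3 and 13.5 CPM in WT to 0.377, 0.631, 0.292 and 0.270 CPM in FANKO samples (log2 -6.13 ± 0.40 SE, adjusted p = 6.79e-15). *C6*, a component of the complement membrane attack complex, fell from 36.1, 70.4, 54.2 and 42.3 CPM in WT to 5.4, 5.94, 8.39 and 6.15 CPM in FANKO (log2 -2.96, adjusted p = 1.39e-13). *Lrg1*, a secreted leucine-rich glycoprotein, fell from 50.1, 97, 95 and 50.5 CPM in WT to 11.4, 8.57, 9.81 and 6.29 CPM in FANKO (log2 -3.02, adjusted p = 4.84e-14). The groups lay far apart in all 3. *Dnah3*, an axonemal dynein heavy chain, was highest in WT replicate 2 (7.2, 22.9, 7.51 and 4.09 CPM in WT against 0.691, 1.1, 0.251 and 0.946 CPM), the library that stood apart.

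**Figure D2:**
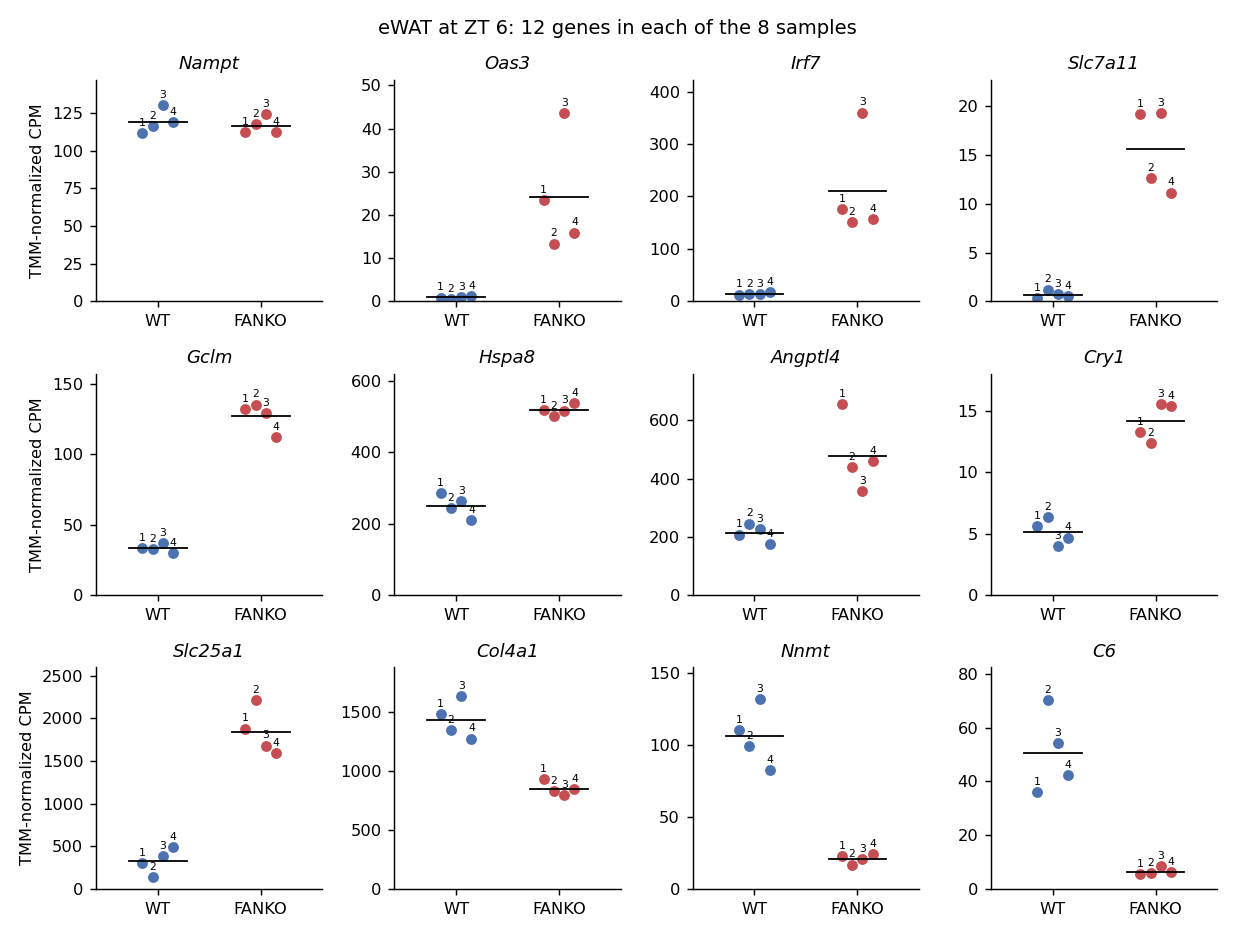
TMM-normalized CPM (y axis, linear from 0) of 12 genes in the 4 WT and 4 FANKO eWAT samples at ZT 6, with replicate numbers beside the points and a line at the mean of 4. *Nampt* overlapped between the genotypes, and the other 11 genes did not. FANKO replicate 3 was the highest sample for *Oas3* and *Irf7*, and not for *Hspa8* or *Angptl4*.

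The interferon list held the most uniform change among the 10 stress lists. All 25 of its genes were tested, and all 25 rose in FANKO eWAT at ZT 6, with no overlap of the groups in any, beside 16.9% of all genes called higher. The log2 fold changes ran from 0.70 for *Parp9* to 4.85 for *Oas3*, with a median of 3.03. *Irf7*, the transcription factor that amplifies type I interferon, held 12.8, 13.3, 14.5 and 17.1 CPM in WT and 176, 152, 360.1 and 157 CPM in FANKO samples (log2 3.88 ± 0.31 SE, adjusted p = 1.35e-13). *Usp18*, which removes ISG15 from proteins and restrains signaling from the interferon receptor, held 5.23, 5.87, 6.52 and 8.36 CPM in WT and 63.6, 49.8, 131 and 60.4 CPM in FANKO (log2 3.56, adjusted p = 6.8e-13). *Ifit1*, which binds viral RNA, held 6.81, 5.37, 8.58 and 8.66 CPM in WT and 133, 86.7, 261 and 109.7 CPM in FANKO (log2 4.35, adjusted p = 1.77e-11). In all 3 genes the groups lay apart and FANKO replicate 3 was well above the other 3 FANKO samples. That library was the highest FANKO sample for all 25 genes, for all 12 T and NK cell markers and for 11 of 12 macrophage markers. T and NK cell markers summed to 9.92 to 17.1 CPM in WT and 24.3 to 59.4 CPM in FANKO samples, with 10 of 12 genes higher, or 6 of 12 without FANKO replicate 3, and none at 0 in all 8 samples. Macrophage markers summed to 917 to 1160 and 992 to 1590 CPM, with 3 of 12 higher, 2 without FANKO replicate 3 and 5 without FANKO replicate 2. The part of these cells in the interferon result was not tested. Without FANKO replicate 3 all 25 genes passed again, with a median of 2.64. Members of the *Oas*, *Ifit*, *Mx* and *Gbp* families resemble each other in sequence, and how the counting treated reads that fit several genes is not given in the sources used here.

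Promoters of 4 of the largest increases are shown because interferon-stimulated genes are known to be switched on through a repeated GAAA element, the interferon-stimulated response element. They are the 250 bases before the RefSeq transcription start (GRCm38.p6), written 5′ to 3′ on the strand of the gene, and were chosen after the values were seen. Capitals mark every match to GAAA, any 2 bases and GAAA, which on the other strand reads TTTC, any 2 bases and TTTC.
*Oas3* (chr5:120777660-120777909, reverse strand): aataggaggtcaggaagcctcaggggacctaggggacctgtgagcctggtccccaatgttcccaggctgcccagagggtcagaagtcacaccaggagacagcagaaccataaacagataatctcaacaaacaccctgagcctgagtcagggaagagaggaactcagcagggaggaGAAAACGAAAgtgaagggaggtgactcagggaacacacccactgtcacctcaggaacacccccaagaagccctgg
*Ifit1* (chr19:34640639-34640888, forward strand): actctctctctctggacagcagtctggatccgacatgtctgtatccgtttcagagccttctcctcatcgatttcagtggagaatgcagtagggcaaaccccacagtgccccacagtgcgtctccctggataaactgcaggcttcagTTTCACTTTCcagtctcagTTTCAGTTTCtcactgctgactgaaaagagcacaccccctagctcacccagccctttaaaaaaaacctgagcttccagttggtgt
*Rsad2* (chr12:26456453-26456702, reverse strand): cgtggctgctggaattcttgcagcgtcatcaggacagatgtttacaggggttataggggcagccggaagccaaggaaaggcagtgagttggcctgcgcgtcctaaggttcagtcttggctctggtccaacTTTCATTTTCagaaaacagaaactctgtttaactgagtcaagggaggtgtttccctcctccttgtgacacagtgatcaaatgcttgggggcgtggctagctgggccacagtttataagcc
*Oasl1* (chr5:114922990-114923239, forward strand): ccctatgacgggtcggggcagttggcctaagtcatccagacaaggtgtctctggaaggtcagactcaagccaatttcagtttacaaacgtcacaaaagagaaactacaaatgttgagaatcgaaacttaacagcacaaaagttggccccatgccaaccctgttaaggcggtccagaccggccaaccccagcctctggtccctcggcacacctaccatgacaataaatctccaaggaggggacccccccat
*Oas3* held 1 match, whose first base lay 75 bases before the start, *Ifit1* held 2 matches, at 104 and 85 bases, and *Rsad2* held 1, at 120 bases. *Oasl1* held none in this window. The promoter table matched 16 of the 25 interferon genes, and 9 of the 16 (56.2%) held the letters, against 936 of 27025 genes of the table (3.46%). This is a description of the sequence in these windows.

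**Figure D3:**
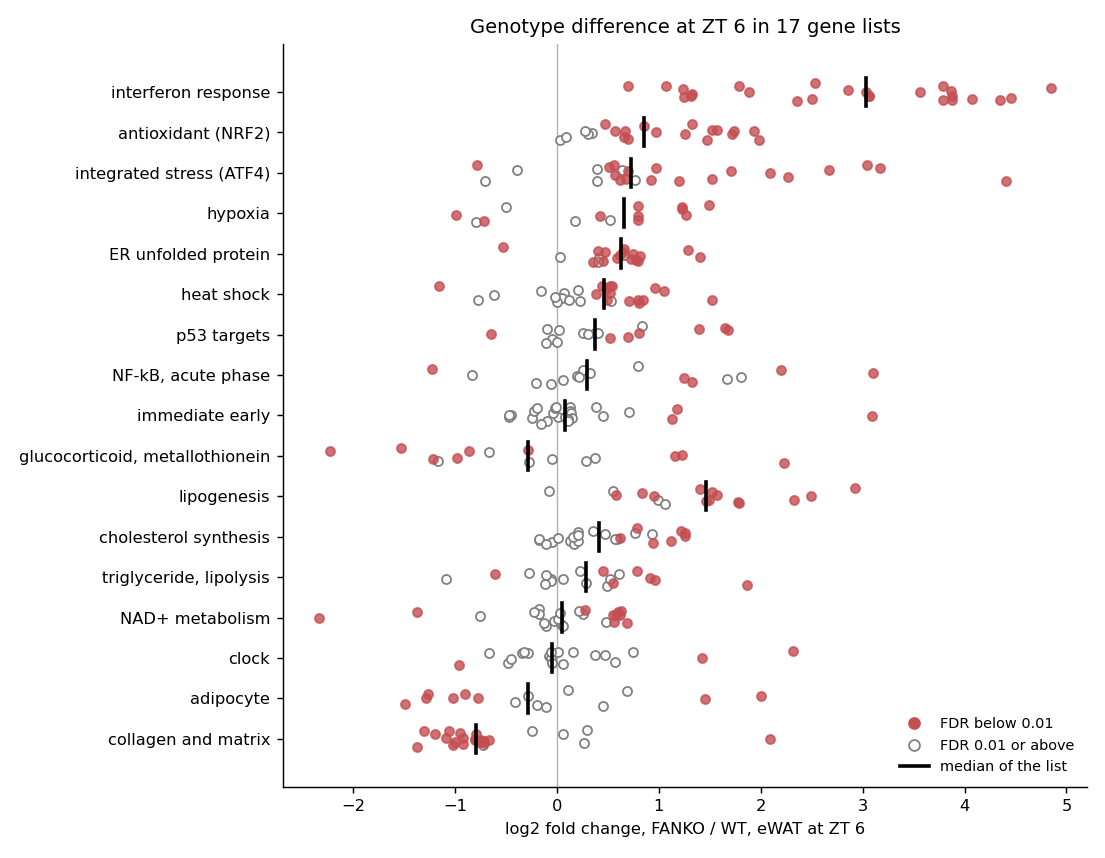
Log2 fold change of FANKO over WT eWAT at ZT 6 (x axis) for the tested genes of 17 lists (y axis). Each point is a gene, filled where the FDR was below 0.01, and the black line is the median of the list. All 25 interferon genes lay to the right of 0 and 19 of 25 collagen and matrix genes were called to the left.

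Over the 10 stress lists together, 203 genes were tested, and 111 were higher (54.7%) and 13 lower (6.4%) in FANKO eWAT at ZT 6. Of all genes tested, 16.9% were called higher and 10.1% lower. Their median log2 fold change was 0.57. Without the interferon list, 86 of 178 genes (48.3%) were higher and the median was 0.47. Scaled by library size alone, the higher genes numbered 24 in place of 25 for interferon, 12 in place of 16 for NRF2, 10 in place of 17 for ATF4, 6 in place of 15 for ER chaperones, 6 in place of 14 for heat shock, 6 in place of 8 for hypoxia, 3 in place of 6 for p53, 2 in place of 4 for NF-kB and 1 in place of 3 for immediate early genes, so the size of these counts depends on how the libraries are centered.

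Targets of ATF4, the transcription factor of the integrated stress response, rose in 17 of 24 cases and fell in 1, with a median of 0.73. The shares of all genes were 16.9% higher and 10.1% lower. *Slc7a11*, which imports cystine in exchange for glutamate, held 0.338, 1.19, 0.715 and 0.534 CPM in WT and 19.2, 12.6, 19.3 and 11.2 CPM in FANKO samples (log2 4.4 ± 0.38 SE, adjusted p = 9.34e-11). *Mthfd2*, a mitochondrial enzyme of folate metabolism, held 4.33, 9.24, 4.65 and 3.97 CPM in WT and 43.4, 35.2, 28.3 and 38 CPM in FANKO (log2 2.67, adjusted p = 5.93e-15), and *Atf5*, a related transcription factor, 39.9, 40.3, 42.9 and 39.7 CPM in WT and 166, 162, 143 and 222 CPM in FANKO (log2 2.09, adjusted p = 5.07e-11). The groups were separated in each of the 3. *Trib3*, which inhibits AKT and ATF4, and the secreted hormone *Fgf21* rose as well, by 2.27 and 3.17 on the log2 scale, the latter at only 1.82, 1.89, 2.55 and 1.08 CPM in FANKO samples. *Sesn2* was the gene that fell (-0.78).

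NRF2 targets, which make glutathione and NADPH and hold iron, rose in 16 of 21 cases and fell in none, with a median of 0.86. Of all genes, 16.9% were called higher. *Gclm* and *Gclc* encode both subunits of the enzyme that starts glutathione synthesis. *Gclm* held 33.5, 32.9, 36.7 and 30.1 CPM in WT and 132, 135, 129.5 and 113 CPM in FANKO samples (log2 1.94 ± 0.08 SE, adjusted p = 1.78e-12), and *Gclc* held 29.9, 32.1, 28.1 and 24.5 CPM in WT and 70.5, 72.6, 62.4 and 69.3 CPM in FANKO (log2 1.26, adjusted p = 1.96e-12). *Srxn1*, which repairs peroxiredoxins, held 27, 22.4, 25.7 and 25.4 CPM in WT and 101, 95, 111 and 90.2 CPM in FANKO (log2 1.98, adjusted p = 2.04e-12). Samples of a genotype lay close together and the groups did not overlap. The mRNA of NRF2 itself, *Nfe2l2*, had a log2 fold change of 0.09 (adjusted p = 0.515).

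Chaperones of the ER rose in 15 of 20 cases and heat shock genes, most of them chaperones of the cytosol or mitochondria, in 14 of 26, with medians of 0.63 and 0.46 and 1 gene lower in each list. The share of all genes called higher was 16.9%. In the ER, *Sel1l*, of the machinery that exports misfolded proteins, held 155, 141, 158 and 132 CPM in WT and 249, 262, 215 and 252 CPM in FANKO samples (log2 0.74 ± 0.09 SE, adjusted p = 1.43e-12). *Hspa5*, the main ER chaperone BiP, held 295, 281, 301 and 282 CPM in WT and 669, 679.5, 722 and 755 CPM in FANKO (log2 1.29, adjusted p = 7.3e-10). In the cytosol, *Hspa8*, the constitutive HSC70 chaperone, held 286, 243, 263 and 211 CPM in WT and 518, 501, 517 and 538 CPM in FANKO (log2 1.05 ± 0.10 SE, adjusted p = 3.92e-07). Every FANKO sample was above every WT sample in these 3 genes. The co-chaperones *Ahsa1* and *Stip1*, which act with HSP90, rose by 0.84 and 0.71 on the log2 scale, whereas the inducible HSP70 gene *Hspa1b* fell by 1.15, a call that was lost without WT replicate 2 and without each single FANKO replicate, and *Hspa1a* was at -0.62 (adjusted p = 0.28). *Hspa8* contains small nucleolar RNA genes on its own strand, and *Hspa1a* and *Hspa1b* are near-identical copies, so their counts are uncertain.

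The remaining stress lists were mixed, beside 16.9% of all genes called higher and 10.1% lower. Of 14 hypoxia genes, 8 rose and 2 fell, among them *Ero1l*, an oxidase of the ER (23.7, 20.4, 21.4 and 19.6 CPM in WT and 48.7, 51, 45.1 and 53.9 CPM in FANKO samples, log2 1.22, adjusted p = 2.87e-13). Of 17 p53 targets, 6 rose and 1 fell, and the death receptor gene *Tnfrsf10b* was at 4.9, 3.6, 4.56 and 4.03 CPM in WT and 13.7, 12.9, 12.2 and 15.9 CPM in FANKO (log2 1.68, adjusted p = 1.18e-11). Both genes were separated between genotypes. Of 16 NF-kB and acute phase genes, 4 rose and 1 fell, with a median of 0.29, and without FANKO replicate 3, 2 rose with a median of 0.13, while without FANKO replicate 4 the median was 0.47. *Il1rn*, the interleukin 1 receptor antagonist, rose from 0.394, 0.613, 0.536 and 0.415 CPM in WT to 3.89, 2.37, 8.1 and 2.57 CPM in FANKO (log2 3.1, adjusted p = 1.22e-06), and *Hp*, haptoglobin, fell from 1286, 1760.02, 1991 and 1207 CPM in WT to 661, 495, 910.3 and 607 CPM in FANKO (log2 -1.22, adjusted p = 4.68e-06). FANKO replicate 3 was the highest FANKO sample for *Il1rn* and for 14 of the 16 genes in all. Of 25 immediate early genes, which answer handling and stimulation within minutes, 3 rose, a smaller share than that of all genes. The median of the list was 0.08, or -0.20 under library size alone, -0.00442 without WT replicate 3 and -0.03 without FANKO replicate 3. *Maff*, a small MAF factor, rose with no overlap (5.07, 4.1, 2.95 and 3.08 CPM in WT and 35.2, 25.8, 46.4 and 23.6 CPM in FANKO samples, log2 3.09, adjusted p = 3.32e-12), while *Fos* passed narrowly (log2 1.13, adjusted p = 0.00785) and lost its call without WT replicate 1, 2 or 3 or FANKO replicate 1 or 3 (adjusted p of 0.0124 to 0.0584), under RLE size factors (0.0126) or library size alone (0.0642), with either other filter (0.0114 and 0.0128), in the fits of eWAT samples alone (0.0214 and 0.0163) and by DESeq2 (0.014). Of 15 glucocorticoid and metallothionein genes, 3 rose and 6 fell, with 3 falling without WT replicate 2, without FANKO replicate 1 or without FANKO replicate 4. *Hsd11b1*, which regenerates active glucocorticoid, rose (158, 124, 132 and 132 CPM in WT and 353, 328, 330.1 and 264 CPM in FANKO, log2 1.23, adjusted p = 2.14e-07), as did *Pdk4*, a kinase that restrains pyruvate oxidation (18.1, 22.2, 17.4 and 22.7 CPM in WT and 108, 113, 80.4 and 76.1 CPM in FANKO, log2 2.22, adjusted p = 3.79e-06). The groups did not overlap in either.

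Of 24 genes of NAD+ metabolism tested, 8 rose and 2 fell, beside 16.9% of all genes called higher and 10.1% lower, with a median of 0.05, which RLE size factors and library size alone turned to -0.01 and -0.23, the latter with 2 genes higher and 3 lower. *Nnmt*, which methylates nicotinamide and so removes it from salvage, fell from 110.5, 99.2, 132 and 82.7 CPM in WT to 22.6, 16.9, 20.7 and 23.9 CPM in FANKO samples (log2 -2.33 ± 0.18 SE, adjusted p = 7.55e-10). *Parp1*, an NAD+ consumer in DNA repair, rose from 54.2, 44.8, 54.8 and 56.6 CPM in WT to 75.2, 80.9, 81.4 and 86.2 CPM in FANKO (log2 0.62, adjusted p = 1.31e-08), and *Nadk*, which makes NADP+, from 212, 166, 206 and 187 CPM in WT to 311, 298, 275 and 297 CPM in FANKO (log2 0.61, adjusted p = 4.27e-07), though *Nadk* lost its call under library size alone (adjusted p = 0.0177). The groups were separated in all 3 genes under TMM.

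Fatty acid synthesis genes were higher in FANKO eWAT at ZT 6. Of 17 tested, 13 rose and none fell, with a median of 1.47, beside 16.9% of all genes called higher and 10.1% lower. *Slc25a1*, the mitochondrial citrate carrier, held 302, 137, 381 and 489 CPM in WT and 1881, 2216, 1681 and 1597 CPM in FANKO samples (log2 2.5 ± 0.41 SE, adjusted p = 8.59e-08). *Acacb*, an acetyl-CoA carboxylase, held 162, 126, 194 and 269.9 CPM in WT and 508, 659, 365 and 581 CPM in FANKO (log2 1.49, adjusted p = 8.39e-08), and *Mlxipl*, the carbohydrate-sensing factor ChREBP, 48.4, 32.6, 45 and 56.9 CPM in WT and 107, 146, 109.6 and 119 CPM in FANKO (log2 1.4, adjusted p = 2.06e-07). The genotypes did not overlap, and WT replicate 2 was the lowest library in all 3. The count was 9 without that library and also 9 without FANKO replicate 2, the highest FANKO sample for 15 of the 17 genes. Under library size alone it was 10, as in the fit of the 32 eWAT samples alone. Cholesterol synthesis genes rose in 7 of 24 cases with a median of 0.41, in 4 cases under library size alone, and in 4 cases with a median of 0.22 without WT replicate 2, for example *Dhcr7*, which makes cholesterol from its last precursor (log2 1.25, adjusted p = 5.69e-05). Of 19 genes of triglyceride storage and breakdown, 6 rose (3 under library size alone), led by *Agpat2* (457, 200.1, 448 and 436 CPM in WT and 1367, 1521, 1329.8 and 1394 CPM in FANKO, log2 1.87, adjusted p = 9.68e-08), and the lipid droplet coat gene *Plin4* fell (2869, 2851, 2823 and 1893 CPM in WT and 1816, 1789, 1533 and 1708 CPM in FANKO, log2 -0.61, adjusted p = 0.000292).

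Adipocyte markers were divided. Of 15 tested, 6 fell and 2 rose, beside 10.1% of all genes called lower and 16.9% higher. With any single library left out, 4 or 5 fell, and under library size alone 8 fell, while 2 rose each time. *Car3*, carbonic anhydrase 3, fell from 16514, 11770.5, 15763 and 12701 CPM in WT to 5195, 5406, 3579.7 and 6003 CPM in FANKO samples (log2 -1.49 ± 0.20 SE, adjusted p = 7.45e-08), and the hormone genes *Adipoq*, *Lep* and *Retn* fell by 0.77, 1.27 and 1.29 on the log2 scale. *Slc2a4*, the insulin-responsive glucose transporter GLUT4, rose from 161, 111, 150.1 and 181 CPM in WT to 428, 461, 359 and 398 CPM in FANKO (log2 1.45, adjusted p = 1.65e-10), and *Pparg*, the master factor of adipocytes, was at -0.11 (adjusted p = 0.597). Of 10 genes known for brown adipocytes, 5 rose. *Cidea*, a lipid droplet protein, held 3.04, 2.38, 5.81 and 7.41 CPM in WT and 33.8, 42.1, 33.4 and 42.5 CPM in FANKO (log2 3.07, adjusted p = 3.52e-11), and *Kcnk3*, a potassium channel, 15.4, 5.56, 12.3 and 17.2 CPM in WT and 101, 109.7, 100.2 and 94.9 CPM in FANKO (log2 3.02, adjusted p = 2.18e-17). *Ucp1*, the defining uncoupling protein, stayed below 2.5 CPM in all 8 samples with a log2 fold change of -0.34 (adjusted p = 0.82).

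Extracellular matrix genes were lower. Of 25 tested, 19 fell and 1, *Thbs1*, rose, beside 10.1% of all genes called lower, and the median was -0.79. With single libraries left out, 13 (without WT replicate 3) to 20 (without WT replicate 4 or FANKO replicate 3) fell. *Col4a1*, of the basement membrane, fell from 1481, 1346, 1634 and 1273 CPM in WT to 933, 827, 792 and 845 CPM in FANKO samples (log2 -0.76 ± 0.09 SE, adjusted p = 1.04e-05). *Lox*, which cross-links collagen, fell from 78.3, 69.7, 67.3 and 51.8 CPM in WT to 29.1, 34, 31.8 and 21 CPM in FANKO (log2 -1.2, adjusted p = 1.66e-07), and *Mmp2*, a gelatinase, from 42.3, 53.9, 43.3 and 44.2 CPM in WT to 25.5, 17, 29.2 and 25 CPM in FANKO (log2 -0.93, adjusted p = 2.22e-05). No FANKO sample reached the WT range in these genes. Progenitor markers fell alongside, in 6 of 8 cases, and summed to 1450 to 1560 CPM in WT and 874 to 1110 CPM in FANKO samples. The number falling was 4 without WT replicate 1 or 3 or FANKO replicate 1, 2 or 4, and 5 without any other single library. *Pdgfra* was at 79.1, 118, 104 and 124 CPM in WT and 51.4, 55.6, 60.5 and 62.1 CPM in FANKO samples (log2 -0.89, adjusted p = 4.42e-07), whereas *Ly6a*, which interferon also induces, rose (1.2). The part of progenitor number in the matrix result was not tested.

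Markers of immune cells differed by lineage. Of all genes, 16.9% were called higher and 10.1% lower. Lipid macrophage markers rose in 6 of 11 cases with a median of 1.37, or 0.84 without FANKO replicate 3, among them *Gpnmb* (8.22, 14, 7.69 and 10.9 CPM in WT and 98.8, 55.7, 107 and 68 CPM in FANKO samples, log2 2.99, adjusted p = 1.04e-09) and *Lgals3* (74.7, 46.2, 73.8 and 41.9 CPM in WT and 299.8, 244, 353 and 216 CPM in FANKO, log2 2.24, adjusted p = 2.88e-12), whereas *Trem2* was at 0.36 (adjusted p = 0.337). Among T and NK cell genes, *Gzma*, a granule protease, rose from 0.957, 0.920, 0.983 and 0.949 CPM in WT to 3.64, 3.05, 10.3 and 3.25 CPM in FANKO (log2 2.43, adjusted p = 1.83e-06). FANKO replicate 3 was the highest FANKO sample for 10 of the 11 lipid macrophage genes and for all 12 T and NK cell genes. Of 8 B and plasma cell markers, 3 were called lower, but *Ms4a1*, the gene of CD20, was at 6.7, 3.6, 1.7 and 18.4 CPM in WT and 1.7, 1.31, 1.75 and 1.89 CPM in FANKO samples. The groups overlapped, WT replicate 4 was the highest, and without that library 0 of the 8 passed in the edgeR test, with adjusted p for *Ms4a1* and *Igkc* of 0.0727 and 0.0288. Mast cell markers fell in 3 of 5 cases, for example the protease gene *Cma1* (2.98, 5.87, 2.77 and 3.91 CPM in WT and 0.879, 0.421, 1.29 and 1.42 CPM in FANKO, log2 -1.96, adjusted p = 3.69e-06). The log2 fold change was above 0 in the other 2. The sum of the 5 genes overlapped between the genotypes, at 23.7 to 39.4 CPM in WT and 22.5 to 35 CPM in FANKO samples. Proliferation genes passed in 2 of 20 cases, a smaller share than that of all genes called higher. They passed in 1 case without WT replicate 2, FANKO replicate 1 or FANKO replicate 3, and in 0 cases of the edgeR test under library size alone. No skeletal muscle, epididymis, germ cell, neutrophil or red blood cell marker passed the edgeR test fitted to all 64 samples. In the fit of the 32 eWAT samples alone, 1 of 6 skeletal muscle markers tested was higher and 3 lower. In the fit of the 8 eWAT samples of ZT 6, 1 of 3 tested was higher and 2 lower.

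Of 20 clock genes tested at ZT 6, 2 rose, *Cry1* among them, and 1, *Per3*, fell, beside 16.9% of all genes called higher and 10.1% lower. Their median was -0.05, and it ran from -0.09 to 0.04 with single libraries left out. *Cry1*, a repressor of the clock (chromosome 10, 85131700 to 85185064, reverse strand), held 5.63, 6.33, 4.02 and 4.68 CPM in WT and 13.3, 12.4, 15.5 and 15.4 CPM in FANKO samples (log2 1.43 ± 0.16 SE, adjusted p = 6.79e-11). *Per3*, a period gene of the clock, held 116, 132, 101 and 88.4 CPM in WT and 48.5, 68.6, 48.4 and 58.5 CPM in FANKO (log2 -0.97, adjusted p = 1.82e-05). The groups did not overlap in either gene. Of the 20 clock genes, 17 had adjusted p values at or above the threshold, with *Arntl* at 0.47 (adjusted p = 0.12) and *Dbp* at -0.28 (adjusted p = 0.307) on the log2 scale. The promoter of *Cry1* is shown because its genotype difference had the joint smallest adjusted p in the test against the other time points given next, with capitals on CACGTG, the E-box that CLOCK and ARNTL are known to bind, which reads the same on both strands.
*Cry1* (chr10:85185055-85185304, reverse strand): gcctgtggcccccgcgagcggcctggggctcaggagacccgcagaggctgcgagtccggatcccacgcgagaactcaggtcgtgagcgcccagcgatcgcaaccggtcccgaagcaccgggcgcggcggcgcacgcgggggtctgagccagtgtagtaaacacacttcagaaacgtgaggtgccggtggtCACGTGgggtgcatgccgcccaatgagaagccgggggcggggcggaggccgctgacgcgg
The single match lay 60 bases before the RefSeq start. CACGTG was present in the window of 5 of the 17 clock genes that matched the table (29.4%) and of 6.86% of all 27025 genes.

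Most genotype differences at ZT 6 were of the same sign through the day. Of the 5458 genes, 5001 (91.6%) had the same direction at ZT 10, ZT 18 and ZT 22, and 1688 (30.9%) were also past the threshold in that direction at all 3. How many of all genes tested kept their direction was not computed, so the 91.6% describes the 5458 genes only. The shares of all genes called at ZT 10, ZT 18 and ZT 22 were 24.5%, 13.6% and 20.6%. The ZT 6 difference was then tested against the mean of the other 3 differences, with no sample shared between time points. 17 genes passed at an FDR below 0.01 (0.084% of genes tested), 11 with a larger (0.0543%) and 6 with a smaller value at ZT 6 (0.0296%), while 1957 genes (9.66%) had an unadjusted p below 0.05. In 10 of the 17 the sign at ZT 6 was opposite to that at both ZT 18 and ZT 22, and in 16 the ZT 10 value lay between that of ZT 6 and the mean of ZT 18 and ZT 22. The 17 were selected by the contrast of ZT 6 with these times, which favors such patterns. The shares over all genes were not computed, so these counts describe the 17 only.

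*Ifrd1* and *Cry1* had the smallest adjusted p. *Ifrd1*, a transcriptional coregulator (chromosome 12, 40201567 to 40248504, reverse strand), held 63, 68.7, 64.3 and 71 CPM in WT and 132, 145, 162 and 128 CPM in FANKO samples at ZT 6, with no overlap. Its log2 fold change was 1.09 at ZT 6 and 0.47, -0.37 and 0.02 at ZT 10, ZT 18 and ZT 22, a difference of 1.05 ± 0.11 SE (adjusted p = 0.000715). *Cry1* was at 1.43 and at 0.45, 0.32 and 0.33, a difference of 1.06 ± 0.18 SE (adjusted p = 0.000715). Both passed again with each single library of ZT 6 left out. Against ZT 10 alone both calls were lost (adjusted p = 0.203 for *Cry1* and 0.86 for *Ifrd1*), and that of *Ifrd1* was also lost without ZT 18 in the mean (difference 0.842, adjusted p = 0.0298). Without WT replicates 2 and 4 together the adjusted p of each was 0.0131. *Nmnat3*, which makes NAD+ in mitochondria, went the other way. At ZT 6 its samples overlapped (12, 8.51, 11.2 and 14.6 CPM in WT and 8.73, 11.9, 10.2 and 9.94 CPM in FANKO samples, log2 -0.18), and the log2 fold change was 0.40, 0.93 and 0.88 at the later times, a difference of -0.91 ± 0.20 SE (adjusted p = 0.0019). This call was lost without ZT 18 (adjusted p = 0.0247) or ZT 22 (adjusted p = 0.0191) in the mean, against ZT 10 alone (adjusted p = 0.86), without FANKO replicate 1 (adjusted p = 0.0172), without WT replicate 4 (adjusted p = 0.0114) and among the 32 eWAT samples alone (adjusted p = 0.0224), with the same sign in each.

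*Angptl4* was the stress gene that passed this test, 1 of 203, beside 0.084% of all genes. An unadjusted p below 0.05 in it was reached by 50 of the 203, of which 18 were interferon genes, beside 9.66% of all genes. *Angptl4* encodes a secreted inhibitor of lipoprotein lipase that glucocorticoids, fasting and hypoxia induce (chromosome 17, 33773750 to 33781830, reverse strand). At ZT 6 the WT samples held 208, 246, 228 and 174 CPM and the FANKO samples 656, 441, 357 and 459 CPM. Every FANKO sample was higher, with replicate 1 the highest. The log2 fold change was 1.16 ± 0.21 SE at ZT 6 (adjusted p = 0.00149), and at ZT 10, ZT 18 and ZT 22 it was 0.87, -1.84 and -1.47. The difference of ZT 6 from the rest was 1.98 ± 0.27 SE (adjusted p = 0.0019), and the negative values at ZT 18 and ZT 22 were past the threshold as well. Without FANKO replicate 1 the adjusted p was 0.0172, with a difference of 1.79, and the ZT 6 value alone was 0.973 (adjusted p = 0.0125). Under library size alone the ZT 6 value was 0.886 (adjusted p = 0.0187). The call against the other times was also lost without ZT 18 (adjusted p = 0.103) or ZT 22 (adjusted p = 0.0474) in the mean. Against ZT 10 alone the difference was only 0.294 and the call was lost. Without WT replicates 2 and 4 together the difference from the mean of the other times was 1.96 (adjusted p = 0.115).

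The other 13 genes lost the call without WT replicate 2, but in 10 of them the difference was of similar size, for example 0.891 for *Rnf125*, -1.49 for *Klhl3*, 0.965 for *Tle3* and 1.96 for *Disp2*, with adjusted p from 0.0247 to 0.0635 over the 10. *Rnf125*, a ubiquitin ligase, was at 1.35 at ZT 6 and 0.91, -0.39 and 0.49 later (difference 1.01, adjusted p = 0.00314), and *Cdr2* at 1.4 and 1.38, 0.04 and -0.19 (difference 0.99, adjusted p = 0.00506). *Klhl3*, a substrate adaptor of a ubiquitin ligase, fell at ZT 6, from 4.56, 5.18, 4.56 and 3.97 CPM in WT to 0.879, 1.21, 1.13 and 1.35 CPM in FANKO, with a log2 fold change of -2.0 against -0.60, -0.20 and -0.51 later (difference -1.56, adjusted p = 0.00415). The differences were 0.75 for *Ankef1*, 1.4 for *Gm45187*, which lies antisense to *Uvrag*, -1.11 for *Zfp189*, 0.66 for *2810004N23Rik*, 1.3 for *Dmrt2*, 0.92 for *Tle3*, whose ZT 6 value of 0.06 was -0.22 under library size alone and -0.00113 under RLE size factors, and 1.95 for *Disp2*. The last 3, *Tmem132b*, *Dnah10* and *Slc9a3*, rest on WT replicate 2. *Tmem132b* held 0.0563, 29.1, 0.179 and 0.296 CPM in WT and 2.26, 3.1, 2.13 and 1.55 CPM in FANKO samples, and its difference went from -5.82 to -0.42 without that library (adjusted p = 1). Without WT replicate 2, 4 of the 17 passed, namely *Ifrd1*, *Cry1*, *Nmnat3* and *Angptl4*, without FANKO replicate 1, 2 passed, and without WT replicates 2 and 4 together, 0 in the edgeR test, with 937 genes at an unadjusted p below 0.05.

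**Figure D4:**
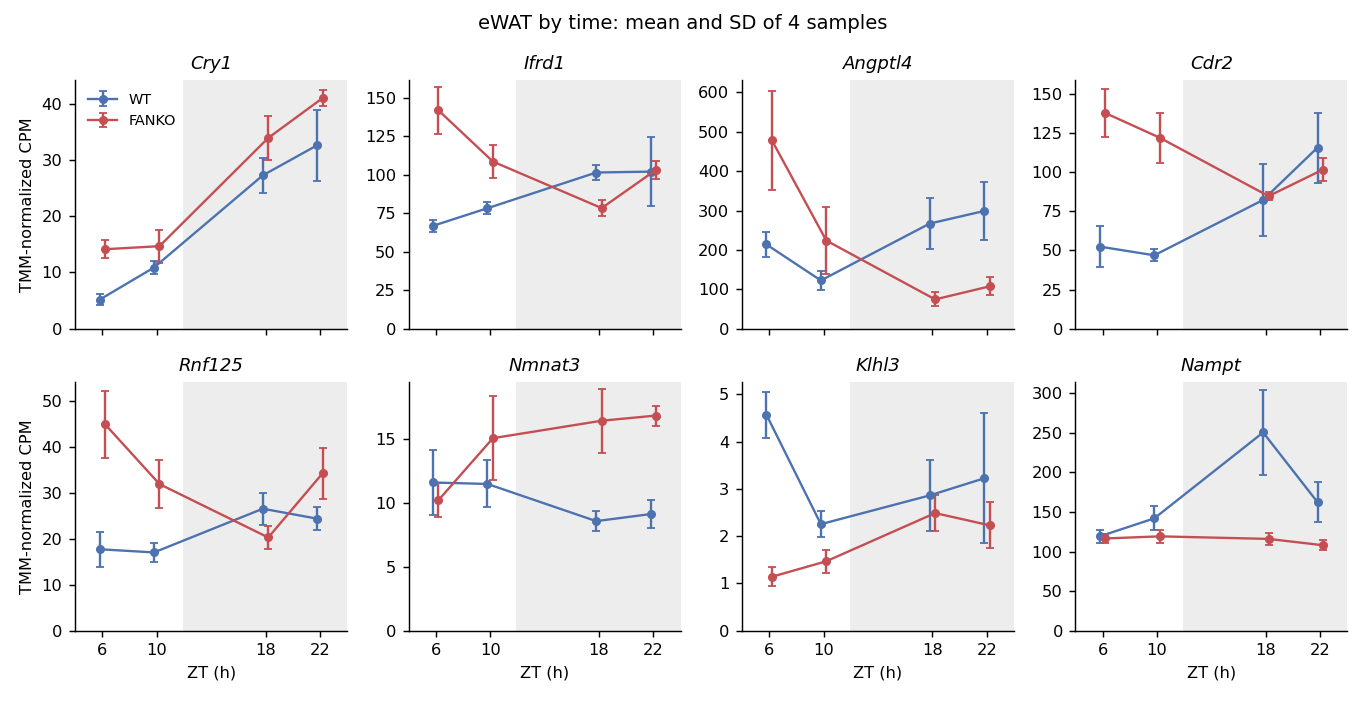
TMM-normalized CPM (y axis, linear from 0) of 7 genes that passed the test of ZT 6 against the other time points, and of *Nampt*, over ZT (x axis, hours) in WT (blue) and FANKO (red) eWAT. Points are means of 4 samples, bars are SD, and shading marks the dark phase. The FANKO mean of *Angptl4* was above WT at ZT 6 and ZT 10 and below WT at ZT 18 and ZT 22, and the *Nampt* means met at ZT 6.

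The number of genes past the test depended on which time ZT 6 was set against. Tested against ZT 10 alone, 0 genes passed the edgeR test (756 at an unadjusted p below 0.05), against ZT 18 alone 67 and against ZT 22 alone 40, and leaving ZT 10 out of the mean raised the count from 17 to 130. Among the 203 stress genes, 111, 103, 64 and 88 were higher in the order ZT 6, ZT 10, ZT 18 and ZT 22, beside 16.9%, 16%, 8.54% and 12.6% of all genes. Those lower numbered 13, 9, 10 and 8, beside 10.1%, 8.46%, 5.1% and 8.02%. These are counts at each time, and the difference between them was tested gene by gene only.

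The interferon list had its lowest median at ZT 18. The median log2 fold change of the 25 genes was 3.03, 2.45, 0.97 and 2.75 at these 4 times, and 25, 23, 12 and 25 of them were called higher. Of all genes, 16.9%, 16%, 8.54% and 12.6% were called higher. All 25 had a larger value at ZT 6 than at ZT 18 and than at ZT 10, and 19 had a larger value than at ZT 22. The shares of all genes with a larger value at ZT 6 were not computed. FANKO replicate 3 of ZT 6 was the highest FANKO sample for all 25, so these genes are not separate observations. In the test against the mean of the other times, 18 of 25 had an unadjusted p below 0.05, where 4.95% of all genes had one in that direction, but none reached the threshold. The smallest adjusted p was 0.0474, for *Ifit3*, whose value went from 4.07 at ZT 6 to 3.01, 0.78 and 2.87. Without FANKO replicate 3 of ZT 6, 6 of the 25 had an unadjusted p below 0.05, and the median difference from the mean of the other times was 0.457 in place of 0.815. Against ZT 18 alone, 8 of the 25 passed at an FDR below 0.01, among 67 of all 20249 genes.

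Heat shock genes were called higher mainly at both light phase times. Of the 26, 14 were higher at ZT 6 and 13 at ZT 10, against 1 at ZT 18 and 2 at ZT 22. The shares of all genes called higher at these times were 16.9%, 16%, 8.54% and 12.6%, so they were lower by night as well. *Hspa8* was at 1.05 and 1.08 by day and 0.19 and 0.20 by night, with a difference of ZT 6 from the rest of 0.56 (adjusted p = 0.162). No heat shock gene passed that edgeR test, in which 7 of 26 had an unadjusted p below 0.05 with a larger value at ZT 6. Of all genes, 4.95% had one in that direction. When ZT 10 was left out of the mean, 3 heat shock genes passed, among 130 of all 20249 genes. ATF4 targets differed little in their counts, with 17, 17, 14 and 16 of 24 higher at ZT 6, ZT 10, ZT 18 and ZT 22, and 2 of 24 with an unadjusted p below 0.05 and a larger value at ZT 6. NRF2 targets were higher in 16, 16, 10 and 15 of 21 cases.

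**Figure D5:**
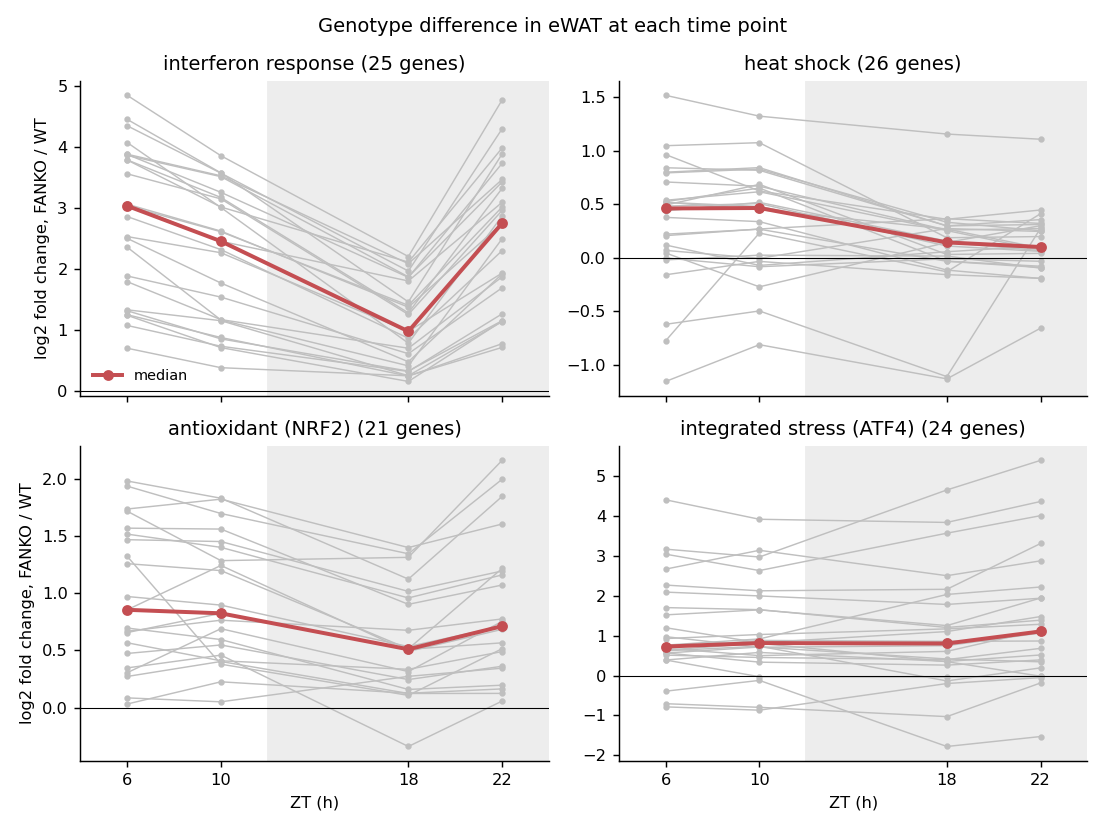
Log2 fold change of FANKO over WT eWAT (y axis) at 4 times (x axis, ZT in hours) for 4 stress lists. Gray lines are single genes, red lines the median of the list, and shading marks the dark phase. The interferon median was 3.03 at ZT 6 and 0.97 at ZT 18, and the heat shock median was 0.46 at ZT 6 and 0.14 at ZT 18.

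In brown adipose tissue (BAT) of the same genotypes at ZT 6, 48.2% of genes were called (24.4% higher and 23.9% lower) against 27% in eWAT. The median of the interferon list was 5.10 in BAT against 3.03 in eWAT, with all 25 genes higher in both, and *Nampt* itself was at -1.94 in BAT against -0.03 in eWAT. *Angptl4* was at -1.01 in BAT. The difference between the depots was not tested.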

How the data were processed

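RNA was extracted by the authors with TRI reagent and RNeasy columns, and libraries were made with the TruSeq Stranded Total RNA kit with Ribo-Zero Gold and sequenced on a NextSeq500 as 38-bp paired-end reads. The authors aligned reads to GRCm38.p5 with STAR 2.5.3a and GENCODE and counted them per gene with featureCounts 1.5.3, and the deposited values are raw counts per gene for 64 samples, the only unit used here. Strand and multi-mapping options of the counting are not given in the sources used here. Gene names and coordinates came from GENCODE M21 on GRCm38 (52489 of 52636 identifiers matched) and promoters from RefSeq on GRCm38.p6.

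Groups came from the sample labels. The 8 libraries at ZT 6 held 9542604 to 22296636 counts (median 14399346), and the count of a gene limits the precision of low values. Genes were kept with edgeR 4.0.16 filterByExpr (minimum count 10, 20249 genes kept), scaled by TMM, and tested with the edgeR quasi-likelihood test in R 4.3.3 with a mean for each of the 16 groups over all 64 samples, so that all groups share 1 estimate of the spread. Benjamini-Hochberg adjustment ran over all 20249 genes with an FDR below 0.01 as the threshold. The genotype difference at ZT 6 was tested, and then its difference from the mean of those at ZT 10, ZT 18 and ZT 22. Log2 fold changes are edgeR estimates, and their SE is the replicate SE of the difference in log2 CPM with a prior count of 2, except for the difference between times, whose SE is computed the same way over the 8 groups. Nampt was also compared by a two-sided exact permutation test of CPM. Labels name separate samples, and nothing says that each is 1 animal, so p-values measure the spread between these samples. No per-sample column was left out.

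Members and gene lists were chosen with earlier results of these data known, so list counts are descriptions. Named genes were Nampt, the 8 largest increases and decreases past the threshold with no overlap of the groups and a mean log2 CPM of at least 1, the 10 genes with the smallest p against the other times, every stress gene past that test, and up to 3 genes past the threshold with the smallest p in each other list. Other members of the lists, the other 7 genes of the test against the other times, and the promoters were chosen after their values were seen. Alternatives were RLE size factors, library size alone, no filter, a minimum count of 30, DESeq2 1.42.0, subsets of samples, the replicate number as a block, a threshold of 0.05, counts without mitochondrial genes, each time left out of the mean and each library left out. Leaving out WT replicates 2 and 4 together and the comparisons with single time points were added after seeing the data. The procedures were tested on simulated data. Values of some list members are not reported here.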

Additional observations from a re-analysis of the deposited data

Results flagged for a closer look

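In a group of 4 samples, 24 of 260 sets of values (9.23%) held a sample far from the other 3 by Dixon's criterion. WT replicate 2 was that sample in 10 of them and FANKO replicate 3 in 8. The criterion flags about 1 in 20 sets of independent normal values. The genes here were named from these same data and some vary together, so the 9.23% cannot be read against that rate. WT replicate 2 was far below the other WT samples in *Agpat2* (200 CPM) and *Dgat1* (137 CPM), which make triglyceride, in the cholesterol synthesis gene *Dhcr7* (5.48 CPM) and in the fatty acid binding gene *Fabp5* (42.2 CPM). It was far above them in *Dnah10* (18.6 CPM), the sodium-proton exchanger gene *Slc9a3* (13 CPM), *Tmem132b* (29.1 CPM), the mast cell protease gene *Mcpt4* (4.64 CPM), *Mmp2* (53.9 CPM) and *Mthfd2* (9.24 CPM).

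FANKO replicate 3 was far above the other FANKO samples in the interferon genes *Irf7* (360 CPM) and *Usp18* (131 CPM), in the killer cell genes *Gzma* (10.3 CPM) and *Ncr1* (7.35 CPM), in the macrophage gene *Mpeg1* (148 CPM), in *Dhcr7* (29.8 CPM) and in the sum of T and NK cell markers (59.4 CPM), and far below them in the sum of endothelial markers (489 CPM). WT replicate 4 was far from the other WT samples in *Aspg* (6.28 CPM), in *Plin4* (1893 CPM, the lowest) and in the sum of T and NK cell markers (17.1 CPM). FANKO replicate 4 was the highest of its group in *Cyp2f2* (4.94 CPM), FANKO replicate 2 in the sum of brown adipocyte markers (190 CPM), and FANKO replicate 1 had the lowest share of mitochondrial counts (6.53%).

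The genotype difference at ZT 6 differed from the mean of the other 3 times in 17 genes by the test of the difference itself (edgeR quasi-likelihood test, FDR below 0.01). It was larger at ZT 6 for *Angptl4* (1.98 on the log2 scale), *Disp2* (1.95), *Gm45187* (1.40), *Dmrt2* (1.3), *Cry1* (1.06), *Ifrd1* (1.05), *Rnf125* (1.01), *Cdr2* (0.99), *Tle3* (0.92), *Ankef1* (0.75) and *2810004N23Rik* (0.66). It was smaller for *Tmem132b* (-5.82), *Slc9a3* (-4.56), *Dnah10* (-3.45), *Klhl3* (-1.56), *Zfp189* (-1.11) and *Nmnat3* (-0.91). The values of *Tmem132b*, *Slc9a3* and *Dnah10* move with WT replicate 2, and without it their adjusted p was 1, 0.836 and 0.698.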

How the results depend on the processing

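Precision is limited by the 4 samples a group. The 5458 genes at ZT 6 numbered 3969 to 5232 with each single library left out and 2820 without WT replicates 2 and 4 together, which leaves 2 WT samples, while list members called, 242 in all, numbered 213 to 236 and 179. Library size alone kept 3261 of the 5458 genes and gave 23.8% of its calls as higher in place of 62.7%. The 17 genes of the test against the other times numbered 2 to 59 with a library left out and 0 without WT replicates 2 and 4. They numbered 130, 2 and 3 without ZT 10, ZT 18 and ZT 22 in the mean, 0, 67 and 40 against ZT 10, ZT 18 and ZT 22 alone, 11 under library size alone, 40 by DESeq2 and 75 at an FDR below 0.05. The cause was not tested. The difference in Nampt was -28.9 CPM under library size alone (exact permutation p = 0.0286) and ran from -5.32 to 0.995 CPM with a library left out, turning without WT replicate 3, with log2 values of -0.0621 to 0.0158. The ZT 6 value of Tle3 turned to -0.00113 under RLE size factors, -0.215 under library size alone, -0.0208 at a minimum count of 30, -0.0016 by DESeq2, -0.0758 without WT replicate 4, -0.00483 without FANKO replicate 2 and -0.084 without WT replicates 2 and 4, with a range of -0.0758 to 0.163 over single libraries left out. That of Tmem132b turned to 0.629 with the replicate block, 3.64 without WT replicate 2 (range -2.16 to 3.64) and 4.34 without WT replicates 2 and 4, where its difference between times was 0.276 and the ZT 6 value of Dnah10 was 0.248. Same-numbered samples did not deviate together (correlations of 0.0565, 0.0216, 0.0345 and 0.069), so the numbers were not taken as pairs. With the replicate block 5428 genes passed, 4983 of them shared, with 18 genes in the test between times, 11 of them shared, and 244 list members.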
